A study of Mus musculus with 4 samples.

Results

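Long intergenic and antisense noncoding RNAs were examined in RAW 264.7 cells, a mouse macrophage line, in wild-type and Hnrnpul1-/- cells with and without lipopolysaccharide (LPS). The members were selected on their annotation and their reads: genes of the biotype lincRNA or antisense whose CPM, the reads per 1000000 counted in a library, averaged 1 or more over 4 RNA-seq libraries. Their LPS and genotype ratios were also known when this set was proposed, so the values below are descriptions. This rule took 338 genes, 178 lincRNA and 160 antisense, of 8385 genes of these biotypes and of 54532 genes in all. Of the 8385, 6067 had no read in any library. Just inside the threshold lay Gm45188 and Gm11707 with mean CPM of 1.013 and 1.012, and just outside it lay Gm29154 and 4731419I09Rik at 0.998 and 0.994.

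Each group held 1 library of polyadenylated RNA: untreated wild type, untreated Hnrnpul1-/- (called the knockout below), wild type given LPS at 100 ng/ml for 10 h, and the knockout given the same. The product of Hnrnpul1 binds RNA and is related to hnRNP U, and LPS is a bacterial cell wall component that macrophages sense through TLR4. The sources used here do not say whether the knockout line is 1 clone, so features of a clone and loss of Hnrnpul1 cannot be told apart. With 1 library per group no difference has a replicate check, and pairs of libraries were not tested; an additive model over the 4 libraries, which has 1 residual degree of freedom, was run as an alternative. In bulk RNA, fewer cells of a type and less RNA per cell cannot be told apart.

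Long intergenic RNAs are transcribed from their own promoters between protein-coding genes, and antisense RNAs run across or beside a protein-coding gene on the opposite strand. Many are spliced and polyadenylated like messenger RNAs, and many stay in the nucleus. In macrophages, members of both classes are known to be transcribed together with inflammatory genes, and some are hosts of microRNAs or act on the expression of immune genes.

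Total counts ranged from 17045432 to 17909549 over the 4 libraries. Hnrnpul1 gave 5086 reads in wild type against 447 in knockout without LPS, and 3114 against 350 with LPS, so the libraries labelled knockout were low in both treatments. The summed level of 10 macrophage markers lay between 3313 and 8535 CPM in the 4 libraries, with 0 or 1 of the 10 at 0 reads. The 3 epithelial markers were at 0 reads in every library, and the summed levels of 5 T cell, 3 B cell and 3 fibroblast markers stayed at or below 0.263 CPM. The 2 endothelial markers summed to 0.263 and 0.310 CPM without LPS and to 1.17 and 1.37 CPM with it (wild type, then knockout). In the same order, Cdh5 gave 5, 6, 18 and 21 of these reads and Kdr 0, 0, 0 and 1. The source of the Cdh5 reads in this macrophage line was not tested.

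The sequences at the starts of 6 members are shown because these genes were all far higher with LPS in both genotypes. The sequences run from 250 bases before to 50 bases after the RefSeq start of each gene (GRCm38.p6). Capitals mark matches, on either strand, to the core of the interferon-stimulated response element (GAAA, any 2 bases, GAAA), to the kappaB motif or to the AP-1 motif (TGANTCA). They lie at chr13:33569268-33569567 on the minus strand (Gm6093), chr13:120010092-120010391 on the plus strand (Gm36161), chr1:150164899-150165198 on the minus strand (Ptgs2os2), chr2:129369652-129369951 on the plus strand (Il1bos), chr9:122310879-122311178 on the minus strand (Gm26797) and chr10:66920335-66920634 on the minus strand (1110002J07Rik).
Gm6093: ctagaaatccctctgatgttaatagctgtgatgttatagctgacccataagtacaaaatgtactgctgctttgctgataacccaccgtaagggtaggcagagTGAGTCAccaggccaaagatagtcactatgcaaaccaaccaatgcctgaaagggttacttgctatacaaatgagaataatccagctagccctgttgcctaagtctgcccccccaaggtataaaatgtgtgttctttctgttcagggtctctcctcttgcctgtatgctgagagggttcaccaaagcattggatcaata
Gm36161: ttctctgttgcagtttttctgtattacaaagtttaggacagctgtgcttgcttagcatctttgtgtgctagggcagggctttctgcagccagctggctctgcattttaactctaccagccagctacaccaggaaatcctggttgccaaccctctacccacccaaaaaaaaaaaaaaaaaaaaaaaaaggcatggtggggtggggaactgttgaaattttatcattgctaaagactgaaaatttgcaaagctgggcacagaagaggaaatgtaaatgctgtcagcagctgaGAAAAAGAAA
Ptgs2os2: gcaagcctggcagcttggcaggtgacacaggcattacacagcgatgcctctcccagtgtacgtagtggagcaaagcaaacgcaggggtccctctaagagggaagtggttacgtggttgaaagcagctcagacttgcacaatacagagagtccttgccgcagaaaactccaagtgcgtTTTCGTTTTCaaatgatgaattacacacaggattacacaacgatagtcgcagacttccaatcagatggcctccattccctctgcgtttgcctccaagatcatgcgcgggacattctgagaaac
Il1bos: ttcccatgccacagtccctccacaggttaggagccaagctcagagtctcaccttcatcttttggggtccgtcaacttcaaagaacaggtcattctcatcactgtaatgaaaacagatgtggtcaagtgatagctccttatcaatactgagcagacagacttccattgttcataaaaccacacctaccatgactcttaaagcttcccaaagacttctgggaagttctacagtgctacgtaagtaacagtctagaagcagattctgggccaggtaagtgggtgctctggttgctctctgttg
Gm26797: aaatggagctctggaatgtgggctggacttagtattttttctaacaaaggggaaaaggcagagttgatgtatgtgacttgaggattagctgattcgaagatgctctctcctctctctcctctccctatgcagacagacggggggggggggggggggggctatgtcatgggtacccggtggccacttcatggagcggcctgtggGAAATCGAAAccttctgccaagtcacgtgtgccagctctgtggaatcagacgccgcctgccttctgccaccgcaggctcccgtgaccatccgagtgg
1110002J07Rik: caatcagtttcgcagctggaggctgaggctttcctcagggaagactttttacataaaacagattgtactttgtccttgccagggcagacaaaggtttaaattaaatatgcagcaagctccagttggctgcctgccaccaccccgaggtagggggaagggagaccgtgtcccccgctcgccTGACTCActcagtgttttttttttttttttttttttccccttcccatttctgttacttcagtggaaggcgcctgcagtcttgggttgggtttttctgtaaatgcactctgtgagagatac
The interferon motif matched in Gm36161, Ptgs2os2 and Gm26797, the AP-1 motif in Gm6093 and 1110002J07Rik, and no motif in Il1bos. RefSeq promoters were found by symbol for 169 members, and 130 of them started within 500 bases of the start in the deposited tables. Among the 19 of these that were higher with LPS in both genotypes, 4 held the interferon motif, 2 the kappaB motif and 4 the AP-1 motif, against 0, 0 and 1 of the 14 that were lower in both. Of all 130 matched members 5.38%, 6.15% and 11.5% held these motifs. In all 32851 promoters of the RefSeq table the shares were 3.44%, 8.46% and 7.81%. A match describes the letters in this window, and no binding was measured.

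Most members had few reads. The median of their mean CPM was 2.47, against 41.9 for the protein-coding genes that passed the same filter, a comparison of counts that are not scaled by length. Of the 338 members, 241 had a mean of 1 to 5 CPM, 97 at least 5, 43 at least 10 and 5 at least 100. The members together took 0.378% of all counts in wild type and 0.372% in knockout without LPS, and 0.361% and 0.325% with it, so the LPS-treated knockout had the lowest share. The 10 most abundant members held 52.6 to 56.7% of the members' reads. By annotation, 181 members overlapped a protein-coding gene, 148 of them antisense and 33 lincRNA, and 134 had an exon that overlapped an exon of such a gene on the opposite strand. The sources used here do not say whether strand was used in the counting, so reads of these members and of their partners cannot be told apart.

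The 10 most abundant members included Malat1, Neat1, Tug1 and the RNAs known as Norad and Cyrano, and 9 of the 10 stayed within 2-fold in every comparison with the scaling used here. Levels below are CPM after TMM scaling, which allows for differences in RNA composition. Levels and read counts are given first for the untreated libraries and then for the LPS libraries, each time wild type before knockout. Differences are log2 ratios with 95% intervals that cover counting error only. Malat1, a nuclear speckle RNA, stood at 589.6, 541, 949 and 707 CPM. Both LPS libraries were above both untreated ones, with log2 ratios of 0.69 (0.65 to 0.72) in wild-type cells and 0.39 (0.35 to 0.43) in knockout. Neat1, the scaffold of paraspeckles, stood at 147, 130, 192 and 126 CPM. Its LPS ratio was 0.38 (0.30 to 0.45) in wild-type cells and -0.05 (-0.14 to 0.03) in knockout, and under LPS the knockout lay below wild type by a log2 ratio of -0.61 (-0.69 to -0.53).

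The other abundant members differed in direction between LPS-treated and untreated libraries. 2900097C17Rik, the mouse Norad RNA that binds Pumilio proteins, stood at 152, 147, 213 and 183 CPM. Tug1 stood at 83.7, 92.3, 110.2 and 111 CPM, with LPS ratios of 0.40 and 0.26. 1700020I14Rik, known as Cyrano and for the decay of the microRNA miR-7, stood at 71.3, 79.7, 48.4 and 40.2 CPM, lower in both LPS libraries by ratios of -0.56 (-0.69 to -0.43) and -0.99 (-1.12 to -0.85). Brip1os, an antisense RNA, was likewise lower in both LPS libraries, at 69.9, 73.9, 42.9 and 40.3 CPM. Gm26917, a locus where ribosomal RNA reads are known to align, stood at 240.1, 196, 334 and 349 CPM, and Gm42047 at 413, 405, 309 and 277 CPM. G730013B05Rik lay between 39.6 and 45.9 CPM in all 4 libraries.

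Of the 10 most abundant members, 4632415L05Rik was the only one past 2-fold in an LPS comparison with TMM scaling, while with total counts Brip1os (-1.003 in wild type, -1.19 in knockout) and 1700020I14Rik (-1.299 in knockout) were past it too, the last also in thinned libraries (-1.004). It stood at 74.0, 67.3, 27.4 and 24.3 CPM, with log2 ratios of -1.43 (-1.59 to -1.27) in wild-type cells and -1.47 (-1.64 to -1.31) in knockout. Its nearest protein-coding gene that passed the filter, Cp (ceruloplasmin), whose start lies 62168 bases away, went the other way, with log2 ratios of 2.86 and 2.82. Per length, in the deposited FPKM averaged over the 4 libraries, Malat1 was highest at 96.3, followed by Gm26917 at 81.2, Gm43351 at 72.2 and Gm42047 at 59.9. Gm43351, a gene of 326 bases, was named after its values were seen. Mir155hg ranked 6 by this measure at 28.1 FPKM and 13 by CPM.

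The first comparison asked how these RNAs differed between LPS-treated and untreated cells of each genotype. A call needed a ratio of 2-fold or more and a counting interval that did not reach 0 on the log2 scale. In wild type, 61 of 338 members (18.05%) were called higher and 38 (11.2%) lower, where the same rule called 11.2% and 10.1% of the 11640 genes of any biotype that passed the same CPM filter. In knockout, 57 members (16.9%) were called higher and 51 (15.1%) lower, against 11.6% and 12% of all genes. In both genotypes, which share no library in this comparison, 44 members (13.0%) were called higher and 30 (8.88%) lower, against 9.66% and 8.55% of all genes, and 0 members were called in opposite directions, against 0.0258% of all genes. The share called higher was thus above that of all genes in each genotype. The share called lower was near it in wild type and above it in knockout. These shares are not matched for level: 241 of the 338 members had a mean CPM of 1 to 5, while 9728 of the 11640 genes had at least 5. The filter also averages untreated and LPS libraries, so a gene low in 1 treatment can pass on its reads in the other. The 3 members with 0 reads in both untreated libraries passed in this way. How far this raises the members' share of calls was not tested. Whether members differ from other genes at 1 to 5 CPM was not tested.

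The median log2 ratio of the members was 0.10 in wild type and -0.06 in knockout, beside -0.004 and -0.02 over all genes. The split of higher against lower calls depended on the scaling: 61.6% of the members' calls in wild type and 52.8% in knockout were higher with TMM, and 44.8% and 35.2% with total counts, which moved the median of all genes to -0.301 and -0.332. Among the 97 members with a mean CPM of at least 5, 20 were called higher and 8 lower in wild type, against 10.2% and 8.65% of all genes at that level, and 20 higher and 11 lower in knockout, against 10.6% and 9.96%. In wild type, 28 lincRNA and 33 antisense members were called higher, and 23 and 15 were called lower.

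**Figure D1:**
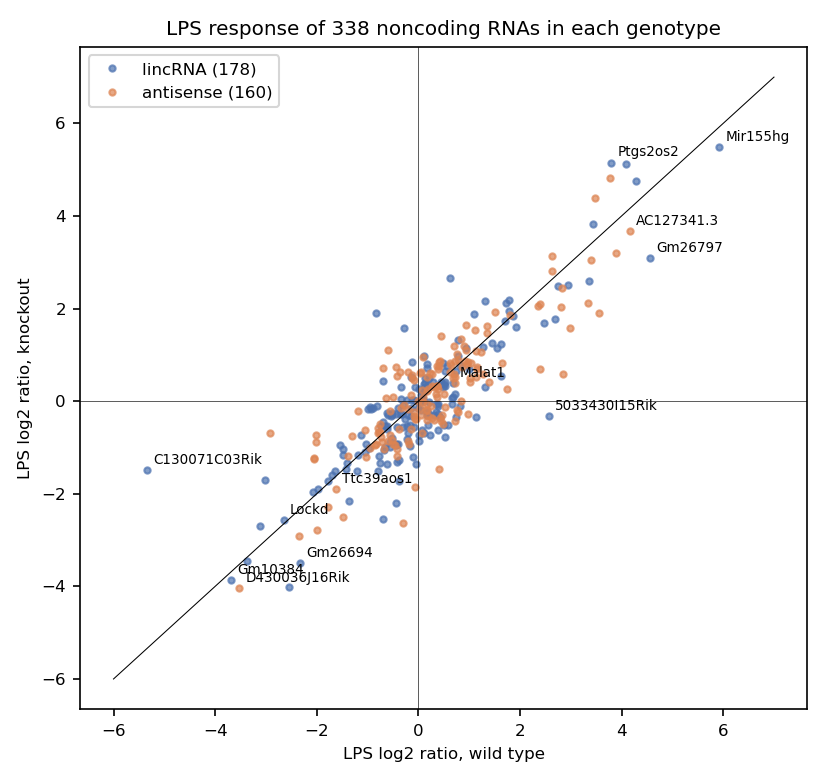
LPS log2 ratio of each of the 338 noncoding RNAs in wild type (x axis) and in knockout (y axis), 1 point per gene, with lincRNA and antisense genes in different colours and a line of equal ratios. Most points lie along the line; C130071C03Rik and 5033430I15Rik lie far from it.

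Mir155hg, the host transcript of miR-155, a microRNA known for its induction in activated macrophages, had the highest mean LPS ratio where counts of 0 were set to 3, so that the ratios of some others are lower bounds. Its reads numbered 20 in wild type and 43 in knockout without LPS, and 976 and 1602 with it, or 1.05, 2.22, 63.6 and 99.5 CPM. Both LPS libraries were far above both untreated ones, by log2 ratios of 5.92 (5.28 to 6.63) in wild-type cells and 5.49 (5.05 to 5.96) in knockout. The knockout lay above wild type in each treatment, by 1.08 (0.28 to 1.92) untreated, which was called, and by 0.65 (0.53 to 0.76) with LPS, which was not. The untreated call was lost in the deposited FPKM, at a log2 ratio of 0.54, and where the whole interval had to lie beyond 2-fold. The FPKM ratio was taken after adding 1 to each value, which pulls ratios of low FPKM towards 0, so it cannot decide the call. The nearest coding gene, Mrpl39, a mitochondrial ribosomal protein gene that starts 14409 bases away, had LPS ratios of 0.08 and -0.02.

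Ptgs2os2, the RNA known as lincRNA-Cox2, lies beside Ptgs2, which encodes the prostaglandin synthase COX-2, with the starts 59012 bases apart. It stood at 0.895, 0.516, 12.4 and 18.4 CPM, from 17, 10, 191 and 296 reads. Its LPS ratio was 3.80 (3.08 to 4.61) in wild-type cells and 5.15 (4.25 to 6.23) in knockout, and the ratio in knockout exceeded that in wild type by 1.36 (0.20 to 2.51). Ptgs2 itself gave 27, 40, 24970 and 38302 reads, with ratios of 10.16 and 10.17. The point values of Ptgs2 showed no difference between genotypes of the size seen in the Ptgs2os2 ratio. Both genes had few untreated reads, and whether they differ in this was not tested.

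A further 3 RNAs had 0 reads in both untreated libraries, where 3 counts, the floor used here, correspond to 0.158 CPM in wild type and 0.155 in knockout. Folds given as "at least", here and below, take 0 reads as 3 and do not allow for counting error. Gm6093 gave 41 reads in wild type with LPS and 87 in knockout with LPS, and was at least 16.9-fold and at least 34.9-fold higher with LPS. Gm36161 gave 47 and 67 reads, at least 19.4-fold and 26.9-fold higher. Il1bos, which overlaps Il1b on the opposite strand by 25 exonic bases, gave 33 and 70 reads, at least 13.6-fold and 28.1-fold higher. Il1b, the gene of the cytokine interleukin 1 beta, was also at 0 reads in both untreated libraries and gave 4130 and 11186 reads with LPS, so the reads of Il1bos came to 0.799% and 0.626% of those of Il1b. Under LPS the knockout library exceeded wild type for Gm6093 and for Il1bos by the same log2 ratio of 1.02, both called, and for Il1b by 1.37.

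Gm20234 and Gm13822, also among the 12 highest, each overlap a coding gene that was higher with LPS. Gm20234, which overlaps Slfn2, a Schlafen family gene, stood at 0.263, 0.103, 2.93 and 2.17 CPM, from 5, 2, 45 and 35 reads. Its LPS ratios were 3.48 (2.15 to 5.17) and 4.40 (2.44 to 7.50), and those of Slfn2 were 4.87 and 4.72. Gm13822, which overlaps the interferon-induced gene Oasl1, stood at 1.21, 2.01, 12.7 and 16.7 CPM, with ratios of 3.39 (2.76 to 4.08) and 3.05 (2.56 to 3.58). Oasl1 had the larger ratios, 6.77 and 6.01, so that the reads of Gm13822 fell from 12.3% and 12.6% of those of Oasl1 in the untreated libraries to 1.18% and 1.62% with LPS.

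Some members of this group had a nearest coding gene with a small ratio or one of the opposite sign. AC127341.3, antisense to Hmga1, a chromatin architectural protein gene, stood at 1.95, 1.91, 34.8 and 24.3 CPM, with ratios of 4.16 (3.68 to 4.68) and 3.67 (3.18 to 4.20), against 1.15 and 0.89 for Hmga1. Gm26809 stood at 1.16, 1.08, 12.5 and 15.3 CPM, while Lsm8, an RNA-processing gene whose start lies 4359 bases away, had ratios of -0.51 and -0.31. 1110002J07Rik stood at 1.42, 1.81, 14.6 and 11.0 CPM, with ratios of 3.36 and 2.60 against 0.62 and 0.68 for Reep3. In all 3 the LPS libraries lay well above the untreated ones, while the log2 ratios of the coding genes lay between -0.51 and 1.15.

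Gm26797 and Gm26674 rested on few untreated reads. Gm26797 gave 3, 9, 57 and 64 reads, with ratios of 4.56 (2.94 to 6.87) and 3.10 (2.08 to 4.29). Gm26674, antisense within Sash1, gave 4, 0, 48 and 23 reads, a ratio of 3.89 (2.44 to 5.83) in wild type and at least 9.22-fold higher with LPS in knockout. Under LPS it was lower in knockout by a log2 ratio of -1.13 (-1.91 to -0.38).

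**Figure D2:**
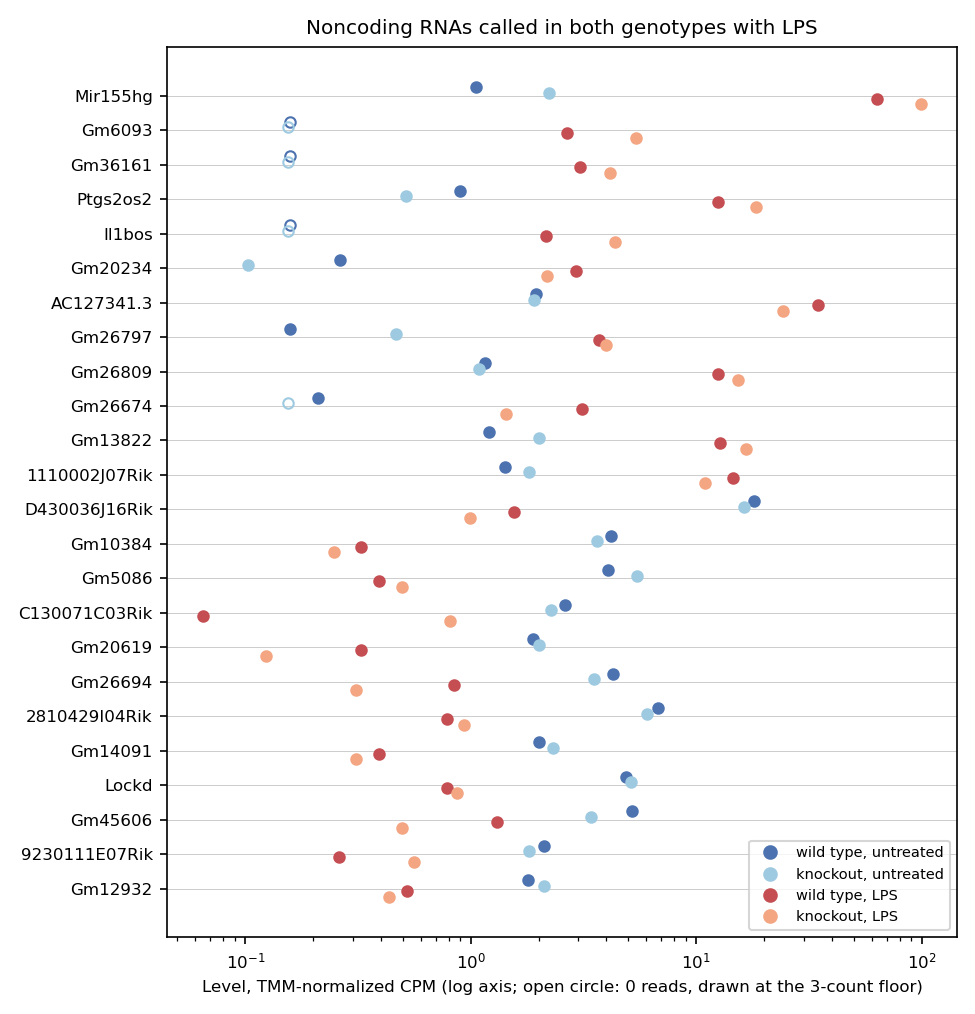
Level of the 12 highest and 12 lowest members called with LPS in both genotypes, as TMM-normalized CPM on a log axis, 1 point per library. In the upper 12 genes both LPS libraries lie to the right of both untreated ones, and in the lower 12 to the left.

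Among the 12 members with the lowest LPS ratios, D430036J16Rik, which overlaps the serotonin receptor gene Htr1b by 852 exonic bases on the opposite strand, had the most reads. It stood at 18.004, 16.3, 1.56 and 0.994 CPM, from 342, 316, 24 and 16 reads, with log2 ratios of -3.53 (-4.19 to -2.93) in wild-type cells and -4.04 (-4.86 to -3.32) in knockout. Htr1b gave fewer reads than its antisense partner, 46, 37, 13 and 2, with ratios of -1.52 and -3.94. Lockd, a noncoding RNA downstream of the cell cycle inhibitor gene Cdkn1b, stood at 4.90, 5.16, 0.782 and 0.869 CPM, with ratios of -2.65 (-3.65 to -1.77) and -2.57 (-3.49 to -1.76). Cdkn1b had ratios of -0.25 and -0.01.

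C130071C03Rik, whose start lies 217347 bases from that of Mef2c, a transcription factor gene, was the member with the largest drop in wild type. It gave 50, 44, 1 and 13 reads, with LPS ratios of -5.34 (-10.67 to -2.79) in wild-type cells and -1.49 (-2.51 to -0.57) in knockout. The wild-type value rests on the single read in the LPS library. The ratio in knockout exceeded that in wild type by 3.84 (0.85 to 6.84), and Mef2c had ratios of -0.97 and -1.26.

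The remaining members of these 12 had log2 ratios between -4.02 and -1.69. Gm10384 gave 80, 70, 5 and 4 reads, Gm5086 gave 77, 106, 6 and 8, and 2810429I04Rik gave 129, 117, 12 and 15. Gm20619 gave 36, 39, 5 and 2 reads, with a knockout ratio of -4.02 (-7.11 to -2.07). Their nearest tested coding genes, Ywhaz, Enc1, Gdi2 and Slc25a13, had ratios between -0.72 and 0.38, none past 2-fold.

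Gm45606, Gm14091, Gm26694 and Gm12932 were lower in the same libraries as genes they overlap or face. Gm45606 overlaps Slc43a2, an amino acid transporter gene, and stood at 5.21, 3.41, 1.303 and 0.497 CPM, with ratios of -2.00 and -2.78 against -1.58 and -2.10 for Slc43a2. Gm14091 overlaps Knstrn, a kinetochore gene, with ratios of -2.36 and -2.90 against -1.97 and -2.29. Gm26694, a locus that spans 18 coding genes, had ratios of -2.33 and -3.50, and Metrn, whose start lies 323 bases from its own, -1.89 and -2.02. Gm12932 starts head to head with Meaf6, 187 bases apart, with ratios of -1.78 and -2.28 against -1.08 and -0.98.

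Across all 338 members, the LPS ratio of the member and that of the nearest protein-coding gene that passed the filter had a Pearson r of 0.41 and a Spearman rho of 0.40 in wild type. In knockout they were 0.43 and 0.36. The points share both libraries of a comparison and neighbouring genes share reads where they overlap, so the values are descriptions. Pearson's r was 0.53 in wild type and 0.54 in knockout for the 181 members that overlap a coding gene, and 0.34 and 0.33 for the 157 that do not. Of 99 members called in wild type, 38 had a neighbour called in the same direction and 3 in the opposite one, and of 108 in knockout these numbers were 35 and 7. Of all protein-coding genes that passed the filter, 10.9% were called higher and 10.3% lower in wild type, and 11.3% and 12.1% in knockout. Of the 74 members called the same way in both genotypes, 27 had a neighbour called that way in both, 21 higher and 6 lower. These were 19 of the 33 that overlap a coding gene and 8 of the 41 that do not. Of all protein-coding genes that passed the filter, 9.65% were called higher in both genotypes and 8.90% lower in both.

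Among these pairs were Gm16712 with Ebi3, which encodes a subunit of the cytokine IL-27, 9330175E14Rik with Nlrc5, a regulator of MHC class I genes, Gm28913 with Ikbke, a kinase of the interferon pathway, and Gm26857 with the tyrosine kinase gene Lyn. Gm16712 stood at 2.37, 1.962, 14.6 and 17.3 CPM, with ratios of 2.62 and 3.14 against 2.53 and 3.21 for Ebi3, and its reads came to between 20.9 and 25.9% of those of Ebi3 in every library. Gm34643, which does not overlap a coding gene, had ratios of 1.28 and 1.17 where Acod1, the gene of the itaconate-producing enzyme, had 9.03 and 8.71. The 7 members with a neighbour called in the opposite direction in either genotype were 4632415L05Rik (Cp), 9530082P21Rik (Paqr4), Gm11772 (Bahcc1), Gm14321 and 9230111E07Rik (both Cebpb), 2010110K18Rik (Fam53c) and Gm11707 (Kpna2). 9530082P21Rik stood at 2.47, 2.12, 15.4 and 14.97 CPM, with ratios of 2.64 and 2.82 against -2.65 and -2.22 for Paqr4. 9230111E07Rik gave 40, 35, 4 and 9 reads, with ratios of -3.01 and -1.69, while Cebpb, a transcription factor gene, had 1.11 and 1.69. These pairs outside the 24 highest and lowest members were named after their values were seen.

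**Figure D3:**
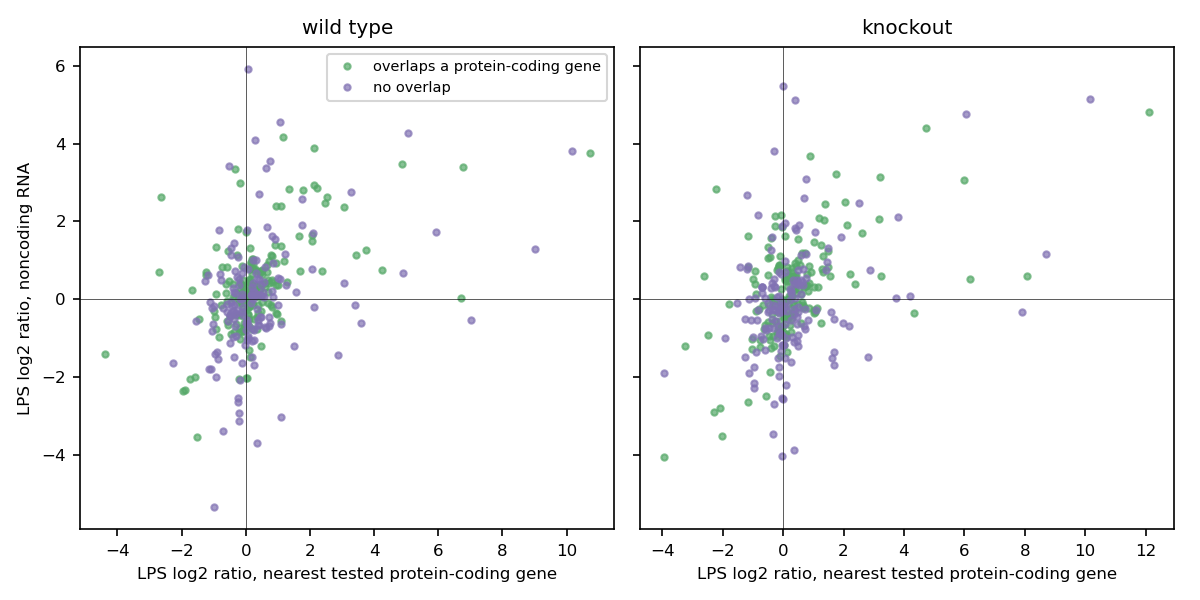
LPS log2 ratio of each noncoding RNA (y axis) against that of its nearest protein-coding gene with a mean CPM of at least 1 (x axis), in wild type and in knockout, 1 point per member. Members that overlap a coding gene have a Pearson r of 0.53 and 0.54, and the others 0.34 and 0.33.

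Noncoding RNAs of known function were also followed by list. The lists are small, and their counts stand beside the LPS shares of all genes, 11.2% higher and 10.1% lower for wild-type cells, 11.6% and 12% for the knockout. Of 13 microRNA hosts listed, 3 were members and 6 of any biotype passed the filter. Mir155hg was the only member of the 3 called higher with LPS. Mir17hg, host of the miR-17 to miR-92 cluster linked to proliferation, stood at 28.5, 30.0, 17.98 and 14.3 CPM, and was called lower in knockout alone, with ratios of -0.67 (-0.88 to -0.45) and -1.06 (-1.29 to -0.84). The difference between these ratios, -0.40 (-0.70 to -0.09), was below 2-fold. Mir142hg, host of a microRNA of blood cells, stood at 5.00, 6.30, 3.97 and 6.52 CPM and was called in no comparison.

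Of 17 RNAs listed for innate immunity, 7 were members, of which 2 were called higher with LPS in each genotype (Mir155hg and Ptgs2os2) and 1 lower (Ttc39aos1). Ttc39aos1, known as lincRNA-EPS, a repressor of immune gene expression in macrophages, stood at 11.9, 11.1, 3.84 and 2.98 CPM. Its ratios were -1.63 (-2.07 to -1.21) in wild-type cells and -1.90 (-2.38 to -1.44) in knockout. Ttc39a, which starts head to head with it 468 bases away, was lower in the same libraries, with 119, 147, 20 and 8 reads and ratios of -2.27 and -3.93. Gm14005, known as Morrbid and for its action on the neighbouring apoptosis gene Bcl2l11, stood at 1.63, 2.07, 1.76 and 4.04 CPM. It was called higher in knockout with LPS, by 1.20 (0.53 to 1.90), where Bcl2l11 had a ratio of 0.75. Pvt1, which lies beside Myc, stood at 8.05, 7.02, 5.54 and 5.59 CPM, with ratios of -0.54 and -0.33, where Myc rose from 7 and 4 reads to 739 and 791.

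Of 17 nuclear and chromatin RNAs listed, 9 were members, and Kcnq1ot1 was the 1 called with LPS. Kcnq1ot1, an antisense RNA that silences imprinted genes in cis, stood at 18.8, 14.6, 44.2 and 30.4 CPM, with ratios of 1.23 (1.05 to 1.42) and 1.06 (0.84 to 1.27). Neither call held with total counts, where the ratios were 0.94 and 0.75, or in the deposited FPKM, at 0.29 and 0.19. The FPKM ratios were taken after adding 1 to each value, which pulls ratios of low FPKM towards 0, so they cannot decide the calls. The knockout was below wild type in each treatment, by ratios of -0.36 (-0.59 to -0.13) and -0.54 (-0.71 to -0.37), neither of them called. Airn, the antisense RNA of the imprinted Igf2r locus, stood at 1.84, 1.34, 3.13 and 1.18 CPM, and was called lower in knockout with LPS, by -1.41 (-2.25 to -0.61). The list of 20 small nucleolar RNA hosts held 4 members (Snhg6, Snhg12, Snhg20 and Epb41l4aos), of which 0 were called in any comparison, and the 13 that passed the filter in any biotype gave 0 higher calls and 1 and 2 lower calls with LPS. Snhg20 stood at 31.3, 25.8, 27.0 and 17.8 CPM, lower in knockout with LPS by -0.60 (-0.82 to -0.38). The list of 4 ribosomal RNA-linked loci held 1 member, Gm26917, which was called in no comparison.

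The comparison of genotypes asked how loss of Hnrnpul1 went with these RNAs with and without LPS. It gave fewer calls than LPS, nearly all of them in members with few reads. Untreated, 7 members (2.07%) were called higher in knockout and 8 (2.37%) lower, against 1.15% and 0.859% of all genes. With LPS, 8 (2.37%) were called higher and 17 (5.03%) lower, against 1.66% and 1.83% of all genes. These all-gene shares are not matched for level, since 9728 of the 11640 genes but 97 of the 338 members had at least 5 CPM. A member low in 1 genotype can also pass the filter on its reads in the other, and the effect of this was not tested. Whether members differ from other genes at 1 to 5 CPM was not tested. Where the whole interval had to lie beyond 2-fold, 1 was higher and 0 lower untreated, and 0 and 1 with LPS. Of the 15 untreated calls 12, and of the 25 LPS calls all 25, were in members with a mean CPM below 5. Among the 97 members at or above that level, 3 were called higher and 0 lower untreated, against 0.483% and 0.288% of all genes at that level. With LPS 0 were called in either direction, against 0.740% and 0.843%. Of the 17 lower with LPS, 13 were antisense, out of 160, and 4 were lincRNA, out of 178. The median ratio was 0.03 untreated, over the 335 members with a read in either library, and -0.07 with LPS, beside 0.007 and 0.001 over all genes. The genotype and LPS comparisons share libraries, so a low or high count in 1 library enters a comparison of each kind.

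**Figure D4:**
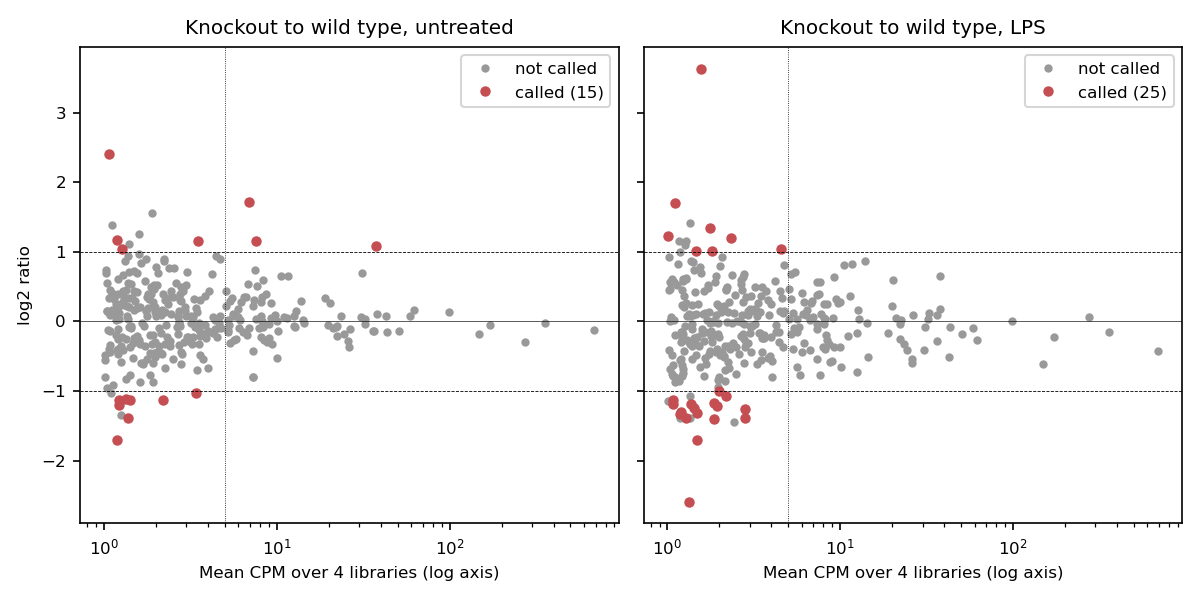
Log2 ratio of knockout to wild type (y axis) against the mean CPM of each member over the 4 libraries (x axis, log), untreated and with LPS, 1 point per member; dashed lines mark 2-fold and the dotted line 5 CPM. All 25 called members with LPS, and 12 of the 15 untreated, lie below 5 CPM.

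In both treatments 0 members were called higher in knockout and 3 (0.888%) were called lower, against 0.344% and 0.326% of all genes. These all-gene shares are again not matched for level. Gm35037, an intergenic RNA, gave 16 reads in wild type and 5 in knockout without LPS, and 43 and 18 with it. Its genotype ratios were -1.71 (-3.51 to -0.19) untreated and -1.32 (-2.21 to -0.50) with LPS, and it was also called higher with LPS in both genotypes. Gm14051, antisense to Slc23a2, a vitamin C transporter gene, gave 41, 16, 26 and 12 reads, with ratios of -1.39 (-2.32 to -0.52) and -1.18 (-2.31 to -0.15). Slc23a2 had ratios of -0.34 and -0.62. 2610037D02Rik gave 62, 29, 40 and 20 reads, with ratios of -1.12 (-1.81 to -0.47) and -1.07 (-1.92 to -0.26). In each of the 3 the wild-type library lay above the knockout one in both treatments.

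The 3 members called in the untreated comparison at 5 CPM or more were Mir155hg, 4930430E12Rik and 1700001L05Rik. 4930430E12Rik, antisense by annotation with Sdcbp as the nearest coding gene, stood at 1.05, 3.46, 12.3 and 12.9 CPM. The untreated knockout lay above wild type by 1.72 (0.98 to 2.52), while the LPS libraries differed by 0.07 (-0.22 to 0.36). Its LPS ratio was thus 3.55 in wild type and 1.90 in knockout, a difference of -1.65 (-2.42 to -0.87). 1700001L05Rik stood at 4.26, 9.50, 6.77 and 10.0 CPM, higher in knockout by 1.16 (0.77 to 1.55) untreated and by 0.56 (0.20 to 0.93) with LPS. Its nearest coding gene, Pacsin2, had genotype ratios of 0.07 and 0.03.

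Other members were called in the untreated comparison alone. 5033430I15Rik, which starts 245 bases head to head from Atxn1, gave 5, 27, 24 and 18 reads, with a genotype ratio of 2.40 (1.01 to 4.14) untreated and -0.48 (-1.45 to 0.46) with LPS. Gm37637, inside Mrps22, gave 10, 23, 27 and 23 reads. For both, the untreated wild-type library was the low one of the 4. Gm13748, 4932422M17Rik, Gm47950 and C030034I22Rik were called lower in untreated knockout, by ratios of -1.20, -1.13, -1.13 and -1.12, from 27 to 51 reads in wild type and 12 to 24 in knockout.

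With LPS alone, the largest ratios rested on few reads in 1 library. C130071C03Rik was higher in knockout by 3.63 (0.90 to 9.04), from 1 read against 13. Gm16907 gave 22, 11, 10 and 34 reads, Gm15156 gave 27, 35, 17 and 45, and Gm11707 gave 12, 7, 15 and 37, with ratios of 1.70, 1.34 and 1.23 with LPS. Gm13091, within Rere, gave 35, 30, 23 and 4 reads, a ratio of -2.59 (-4.58 to -1.04), and Gm28192, antisense to Csnk1d, gave 29, 33, 31 and 10, a ratio of -1.70 (-2.89 to -0.64). In both the LPS-treated knockout was the low library. Gm45606 was lower in knockout with LPS by -1.39 (-2.78 to -0.15), where the gene it overlaps, Slc43a2, had a ratio of -0.95.

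**Figure D5:**
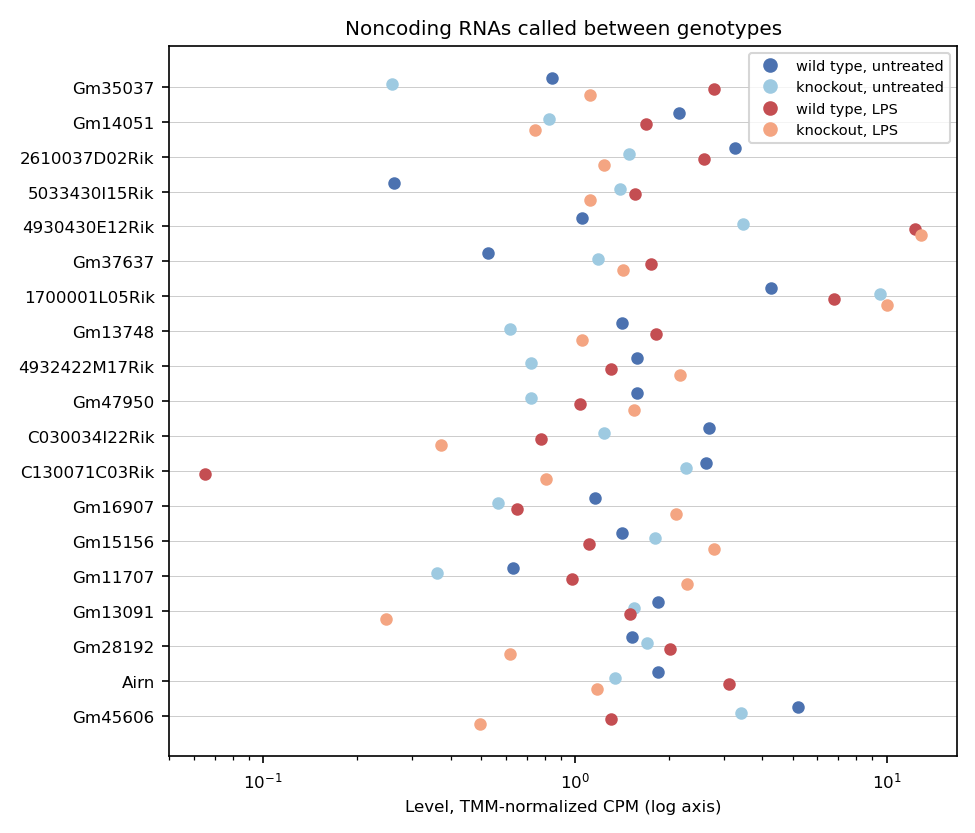
Level of 19 members called between genotypes, as TMM-normalized CPM on a log axis, 1 point per library. The upper 3 were called lower in knockout in both treatments, and the others in 1 treatment; most levels lie below 5 CPM.

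Untreated, 0 of the 15 members called between genotypes had a neighbour called in the same direction, and with LPS 1 of 25. Of all protein-coding genes that passed the filter, 0.968% were called higher and 0.677% lower in untreated knockout, and 1.49% and 1.65% with LPS. Pearson's r across members was 0.02 over 335 members untreated and 0.17 over 338 with LPS.

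The difference between the LPS ratios (knockout minus wild type) was called above 0 for 11 members (3.25%) and below 0 for 21 (6.21%). The same rule called 1.18% and 1.84% of all genes, which are not matched to the members for level. Of the 32 called members, 29 had a mean CPM below 5. Among the 97 members with at least 5 CPM, 2 were called above 0 and 1 below, against 0.421% and 0.678% of all genes at that level. Above 0, the highest were C130071C03Rik, Gm16907 at 2.72 (1.27 to 4.18), B230369F24Rik at 2.24 (0.62 to 3.87), Gm11707 at 2.04 (0.44 to 3.64) and 4932422M17Rik at 1.87 (0.66 to 3.08). Below 0, the lowest were 5033430I15Rik at -2.89 (-4.52 to -1.25), Gm13091 at -2.34 (-4.03 to -0.66), Gm10552 at -2.26 (-3.83 to -0.69), Gm28192 at -1.86 (-3.11 to -0.60) and Gm38150 at -1.85 (-3.37 to -0.32). B230369F24Rik gave 47, 27, 5 and 14 reads, Gm10552 gave 6, 16, 35 and 20, and Gm38150 gave 30, 42, 15 and 6. The intervals of these differences are wide, and each value rests on at least 1 library with 14 reads or fewer.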

How the data were processed

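Per the labels' protocols, poly-T beads selected the mRNA and random hexamers primed the cDNA, so RNAs without a poly-A tail are under-represented. Per the submitters' processing notes, featureCounts 1.5.0-p3, HISAT2 2.0.5 and CASAVA 1.8 were used, with mm10 and GRCm38 as the named builds. The authors deposited whole read counts per gene, not normalized, and FPKM values, whose scaling per library was 1.15 and 1.16 times the total counts without LPS and 0.932 and 0.927 times with it (wild type, then knockout). Symbols, biotypes and coordinates were taken from the deposited tables per the file headers, and overlaps from GENCODE M21, whose coordinates were equal for 331 of 338 members.

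TMM factors (edgeR 4.0.16, R 4.3.3) were computed over the 11640 genes whose CPM averaged 1 or more, of which 10334 were protein-coding. Ratios of pairs of libraries carry exact conditional (Clopper-Pearson) 95% intervals, and differences between ratios delta-method intervals. Both cover counting error only, since each group held 1 library. PCR copies were not marked by molecular identifiers, so even the counting error may be understated. Counts of 0 were set to 3, per library, in ratios, and ratios between libraries both at 0 were left out. The nearest protein-coding gene was taken by gene start.

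The members and lists were chosen with earlier results of these data known. Named genes were the 10 most abundant members, members of the 5 lists, up to 12 per direction called with LPS in both genotypes, up to 10 per direction called between genotypes in both treatments, up to 4 in each direction called in a single genotype comparison, and up to 5 per direction called in the interaction. The alternatives tried were total counts, DESeq2 1.42.0 size factors, other fold rules and filters, thinned libraries, the deposited FPKM as log2(value + 1), lincRNA alone, members without overlap and an additive edgeR quasi-likelihood model with a Benjamini-Hochberg adjusted p of 0.05.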

Additional observations from a re-analysis of the deposited data

Results flagged for a closer look

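For 15 members the LPS ratio had opposite signs in the genotypes and their difference was at least 2-fold with a counting interval that excluded 0. The share of all genes that meet this rule is not given here, so the count is not a result about the members. With LPS 0 of the 338 members were called in opposite directions, so in none of these were both signs called. Each sign rests on 1 library pair, so the difference between genotypes was not tested. The difference (knockout minus wild type) was below 0 for 9 of them: -2.89 for 5033430I15Rik, -1.86 for Gm28192, -1.47 for Gm39469, -1.29 for Gm27010, -1.27 for Gm26642, -1.14 for Gm16279, -1.10 for AI480526, -1.02 for Gm45250 and -1.004 for Gm26792. It was above 0 for 6: 1.13 for Gm28901, 1.18 for Gm4673, 1.42 for Gm12359, 1.70 for Gm47950, 1.87 for 4932422M17Rik and 2.72 for Gm16907. The reads of these 15 members ranged from 5 to 170 in a library.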

How the results depend on the processing

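With DESeq2 size factors and with libraries thinned to the smallest total, each of the 20 summary values stayed within 1.5 times its count, or within the tolerance set for medians and correlations. Values that moved are given as higher then lower counts for LPS in wild type, LPS in knockout, LPS in both, knockout untreated, knockout with LPS, both treatments and the interaction, where the counts by the main rule were 61 and 38, 57 and 51, 44 and 30, 7 and 8, 8 and 17, 0 and 3, and 11 and 21. With the whole interval beyond 2-fold they were 38 and 20, 32 and 21, 28 and 14, 1 and 0, 0 and 1, 0 lower in both treatments, and 1 and 1. With the CPM minimum raised to 5 and TMM recomputed they were 19 and 9, 20 and 11, 18 and 7, 3 and 0, 0 and 0, 0 lower in both treatments, and 2 and 1. With no filter on low counts they were 139 and 96, 141 and 130, 73 and 52, 30 and 37, 43 and 54, 2 higher in both treatments, and 31 and 49. With the deposited FPKM, called on 2-fold size alone, they were 29 and 15, 30 and 19, 22 and 13, 1 and 1, 1 and 2, 0 lower in both treatments, and 3 and 6. For lincRNA alone they were 28 and 23, 28 higher in knockout, 23 higher in both, 3 and 5, 4 lower with LPS, and 6 and 11. Without members that overlap a coding gene they were 27 and 25, 24 and 33, 20 higher in both, 4 and 4, 5 and 4, and 6 and 9. With a 1.5-fold rule they were 61 lower in wild type, 77 lower in knockout, 24 and 17, 24 and 28, 4 and 5, and 17 higher in the interaction. With total counts, 58 and 81 members were lower with LPS in wild type and knockout. The additive edgeR model called 0 members lower in knockout, against the 3 called in both treatments, and 0 higher; it assumes that genotype and LPS effects add, and it left 54 higher and 38 lower with LPS. Settings that test fewer members lower the counts by construction. In the FPKM setting 1 was added to each value, which by construction pulls ratios of genes with low FPKM towards 0. How much of the FPKM change this makes was not tested, nor was the cause of the other changes.

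The median LPS log2 ratio, 0.10 in wild type and -0.06 in knockout, was -0.19 and -0.37 with total counts, 0.31 and 0.28 with no filter, and -0.10 and -0.24 without overlapping members, and in wild type 0.0047 for lincRNA alone. The median untreated genotype ratio, 0.03, was -0.038 with no filter. Pearson's r between member and neighbour was 0.20 and 0.16 with no filter, and 0.33 in knockout for lincRNA alone. Without the 3 members with 0 reads in both untreated libraries, a setting chosen after seeing the data, r was 0.38 in each genotype.

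Of 99 calls among the named genes, 49 were lost with the deposited FPKM, where adding 1 to each value pulls ratios of low FPKM towards 0. With the whole interval beyond 2-fold 39 were lost, and with total counts 3 (Kcnq1ot1 in both genotypes and Gm47950 in knockout). With DESeq2 size factors or thinned libraries 0 were lost. The 1.5-fold rule cannot lose a call made at 2-fold. No library could be left out in turn, since each group held 1 library, and the additive model, which has genotype as a term, is the only fit over all 4. The floor of 3 counts corresponds to 0.155 to 0.195 CPM in these libraries, and members near 1 CPM carry intervals several-fold wide.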
